A study of Mus musculus with 2 samples.

Results

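The voltage-gated sodium channel subunits described here are 9 genes: the pore-forming alpha subunit genes Scn1a, Scn3a, Scn8a, Scn9a, Scn10a and Scn11a, their relative Scn7a, and the beta subunit genes Scn2b and Scn3b. They were taken by symbol, and all 9 were found among the 31053 genes of the count matrices. The cells came from dissociated dorsal root ganglia (DRG) of 2-week-old Swiss mice, kept for 3 days in culture and uninjured, and were captured as 2 libraries, A and B, of the same condition. No other condition was measured, so the genes are described across the cell classes of this culture. Nothing in the labels or methods says that A and B came from separate cultures or animals. Every p-value below therefore measures only spread between these 2 libraries, which may be technical. That spread was estimated over all cell groups in the fit, glia, fibroblasts and macrophages included.

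Voltage-gated sodium channels open when the membrane depolarises and carry the inward current of the action potential. Each is built around 1 large alpha subunit that forms the pore, with smaller beta subunits that alter its gating and its place in the membrane. DRG neurons are known for expressing both channels that are blocked by tetrodotoxin, among them Nav1.7 (Scn9a), Nav1.6 (Scn8a), Nav1.1 (Scn1a) and Nav1.3 (Scn3a), and the resistant channels Nav1.8 (Scn10a) and Nav1.9 (Scn11a), which are mostly found in nociceptors, the neurons that detect painful stimuli. Scn7a encodes Nax, which resembles the alpha subunits but senses the sodium concentration rather than the voltage, and which glia also use.

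The difference between sensitive and resistant channels can be read in the coding sequence of the outer pore. Tetrodotoxin binds beside the selectivity filter, and the residue that follows the filter's aspartate in the first repeat is an aromatic amino acid in the sensitive channels and a serine in the resistant ones. The 33 coding bases around that codon, in exon 9 of each gene, are given for 5 alpha subunit genes that carry the motif, 5′ to 3′ on the gene's strand, from GENCODE M21 transcripts on GRCm38. Capitals mark the codon at the tetrodotoxin site.
Scn10a: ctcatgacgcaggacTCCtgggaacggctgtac
Scn11a: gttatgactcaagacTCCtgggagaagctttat
Scn9a: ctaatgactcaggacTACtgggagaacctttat
Scn8a: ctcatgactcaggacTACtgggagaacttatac
Scn3a: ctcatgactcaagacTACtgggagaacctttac
Scn10a, at chr9:119666372-119666404, and Scn11a, at chr9:119805665-119805697, had the serine codon TCC. Scn9a (chr2:66548986-66549018), Scn8a (chr15:100971623-100971655) and Scn3a (chr2:65521798-65521830) had the tyrosine codon TAC. The Scn9a stretch matched that of Scn3a at 30 of 33 bases, that of Scn8a at 29, that of Scn11a at 28 and that of Scn10a at 24. In Scn7a the motif, a threonine or serine codon followed by glutamine, aspartate, any residue, tryptophan and glutamate, was not found.

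The genes lie in clusters. Scn3a, Scn1a, Scn9a and Scn7a follow each other on the minus strand of chromosome 2, from the start of Scn3a at 65457118 to the end of Scn7a at 66784914. Scn10a (119608456 to 119719322) and its neighbour Scn11a (119753759 to 119825456) lie on the minus strand of chromosome 9, which also holds Scn3b and Scn2b, and Scn8a lies on chromosome 15 from 100869858 to 101045938. Genes annotated on the opposite strand overlap Scn1a, Scn3a, Scn9a, Scn2b and Scn3b, and 3 of these (Gm13595, Gm13629 and Gm10684) have rows of their own in the matrices.

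The libraries held 5175 barcodes with 40355401 unique molecular identifiers (UMIs, each counting 1 captured transcript) in A and 5773 barcodes with 38945848 UMIs in B, and 8 barcodes occurred in both. Of the 10948 cells, 10730 had at least 200 genes and at most 10% of UMIs from mitochondrial genes. Clusters formed without the sodium channel genes gave 810 neurons (435 in A and 375 in B, median 28331.5 UMIs), 9444 glia (median 4723), 393 fibroblasts (median 11488) and 83 macrophages (median 9203). The 10 neuron marker genes summed to 15890 CPM (counts relative to 1000000 UMIs of the class) in neurons and 312 CPM in glia, and no cluster led with endothelial or pericyte markers. Levels are CPM of the UMIs summed over a class in 1 library. UMIs count 3′ ends and were not scaled by gene length, so the order of genes is an order of captured transcripts. Neuron clusters 5 and 9 were shallow, with medians of 1353 and 4852.5 UMIs, and cluster 6 carried macrophage genes in library B. The 8 glial markers summed to 2051 and 2152 CPM in cluster 5 and to 4295 and 3811 CPM in cluster 9, in A and B. Cluster 9 also had 1718 and 5893 CPM of 7 fibroblast markers, beside 3175 and 6194 CPM of the neuron markers. These 3 clusters stayed among the neurons in the main results. Levels and tests were also computed without them, an alternative chosen after seeing the data.

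Scn9a, which encodes Nav1.7, the channel whose loss abolishes pain in people, had the most UMIs of the 9 genes in neurons. Its level was 206 CPM in neurons of both A and B, against 5.20 and 4.11 CPM in glia and 1.88 and 2.47 CPM in fibroblasts. Neurons held 94.3% of all Scn9a UMIs. In macrophages it had 0 UMIs in A and was at 14.6 CPM in B, where all 7 UMIs came from 1 cell.

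The tetrodotoxin-resistant channels were the most neuron-bound of the alpha subunit genes. Scn10a, which encodes Nav1.8, the channel that carries most of the upstroke of the nociceptor action potential, had 107 and 88.7 CPM in neurons of A and B, against 1.14 and 0.495 CPM in glia. Scn11a, which encodes Nav1.9, a persistent current near the resting potential, had 73.3 and 66.1 CPM in neurons, against 0.630 and 0.380 CPM in glia. Neurons held 97.9% of the Scn10a UMIs and 98.1% of the Scn11a UMIs. Fibroblasts and macrophages together gave 3 UMIs of Scn10a and 2 of Scn11a. In macrophages Scn10a had 0 UMIs in either library, which allows up to 7.13 CPM in A and 6.25 CPM in B by counting error alone. Levels of both in neurons moved with the mitochondrial limit. With at most 5% mitochondrial UMIs, which left 280 neurons, Scn10a averaged 56.0 CPM, against 97.8 ± 12.9 CPM (SD, n = 2 libraries) with the 10% limit. Scn11a averaged 44.4 CPM, against 69.7 ± 5.08 CPM. The stricter limit also changed the mix of neurons: it kept 87 of the 372 Calca-high and 192 of the 438 Calca-low neurons described below. The part of this shift in the levels under this limit, here and below, was not tested.

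The remaining tetrodotoxin-sensitive channels were low. Scn8a, the channel of nodes and axon initial segments, had 18.7 and 16.2 CPM in neurons, against 7.12 and 7.68 CPM in glia. Scn3a, the channel that is abundant in embryonic neurons, had 13.1 and 11.98 CPM in neurons, against 0.197 and 0.152 CPM in glia. Scn1a was the scarcest of the 9, with 22 and 32 UMIs in neurons of A and B (1.89 and 3.52 CPM), against 18 and 13 UMIs in glia (0.708 and 0.495 CPM). Scn8a therefore differed from Scn3a in its split over classes, although both were low in neurons: glia held 50.3% of the Scn8a UMIs and 3.31% of the Scn3a UMIs. With the 5% mitochondrial limit Scn8a averaged 11.1 CPM in neurons, against 17.4 ± 1.78 CPM (SD, n = 2) with the 10% limit.

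Scn7a had the highest glial level of the 9 genes in both libraries. It had 102 and 98.7 CPM in neurons, against 54.1 and 53.3 CPM in glia, 16.95 and 20.98 CPM in fibroblasts, and 19.0 and 12.5 CPM in macrophages, the last from 8 and 6 UMIs. Glia, which were far more numerous, held 56.0% of the Scn7a UMIs and neurons 42%. Up to 9 Scn7a UMIs were counted in a glial cell, and 599 glia had at least 2, whereas the most of any other member in a glial cell was 4 UMIs, of Scn9a. Among the 7 alpha subunit genes, counting Scn7a, it made up 79.2% ± 1.22 of the UMIs in glia (SD, n = 2), against 19.8% ± 0.387 in neurons.

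Of the beta subunits, Scn3b was shared by neurons and glia and Scn2b was not. Scn3b, whose product binds alpha subunits without a disulfide bond, had 42.1 and 36.5 CPM in neurons, against 9.76 and 10.4 CPM in glia, 0.471 and 1.65 CPM in fibroblasts and 1 UMI in each library's macrophages. Scn2b, whose product is joined to alpha subunits by a disulfide bond, had 6.89 and 8.91 CPM in neurons, against 0.157 and 0.0380 CPM in glia and 2.83 and 1.65 CPM in fibroblasts. With the 5% mitochondrial limit Scn2b averaged 2.16 CPM in neurons, against 7.90 ± 1.43 CPM (SD, n = 2) with the 10% limit. In the order of neuronal levels, Scn9a stood alone at the top. Scn7a and Scn10a came next and overlapped in library values, and Scn11a, Scn3b, Scn8a, Scn3a, Scn2b and Scn1a followed without overlap between neighbours.

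**Figure D1:**
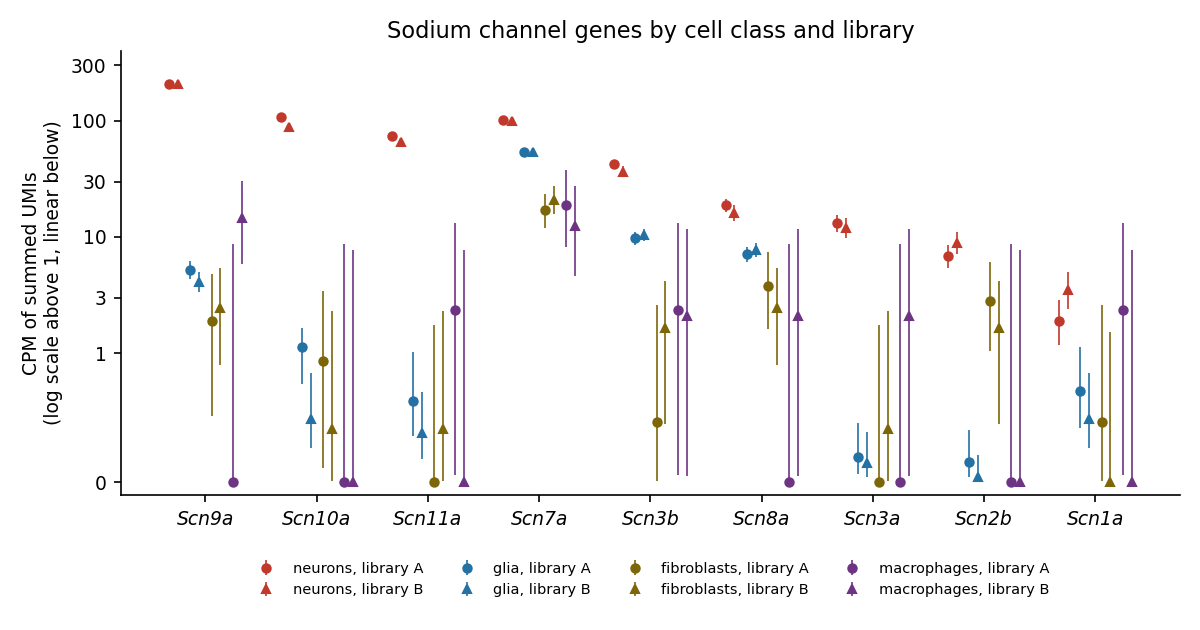
CPM of the 9 genes (x axis) in each cell class and library; the y axis is logarithmic above 1 CPM and linear below, points are values of summed UMIs and lines are exact 95% Poisson intervals, which cover counting error only. Neurons lie highest for all 9 genes in both libraries except where macrophage values rest on a few UMIs, and Scn7a has the highest glial level, 54.1 and 53.3 CPM.

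The channel genes Scn2a, Scn4b and Scn4a, outside the 9, were low or rare. Scn2a, which encodes Nav1.2, was at 15.8 CPM in neurons of each library, against 0.708 and 0.951 CPM in glia. Scn4b, a beta subunit gene linked to resurgent current, had 2.93 and 2.64 CPM in neurons, against 0.276 and 0.152 CPM in glia and 1.88 and 5.76 CPM in fibroblasts. The muscle channel gene Scn4a gave 1 UMI in all.

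RNA set free from broken neurons can enter droplets of other cells, so the ratio of the glial to the neuronal level was set beside that of genes that mark neurons. The 10 neuron marker genes had glial levels of 0.733% (Elavl4) to 4.21% (Nefm) of their neuronal levels, with a median of 1.58%. Scn9a, at 2.26% ± 0.368, Scn3a, at 1.39% ± 0.166, Scn2b, at 1.36% ± 1.31, and Scn10a, at 0.812% ± 0.361, lay within that range (SD, n = 2 each). Scn11a, at 0.718% ± 0.201 (SD, n = 2), lay just below its lower end. The source of the glial UMIs of all these genes was not tested, and no glial expression is read from them. Scn7a, at 53.5% ± 0.746, Scn8a, at 42.8% ± 6.65, and Scn3b, at 25.8% ± 3.72, lay far above all 10 markers. The Scn1a ratio was 37.4% in A and 14.1% in B but rested on 31 glial UMIs. When the 4144 glia with at least 2 neuron marker UMIs were left out, Scn7a stayed at 54.4 and 55.9 CPM in glia, Scn3b at 10.6 and 10.9 CPM and Scn8a at 6.79 and 7.34 CPM. Scn9a stayed at 4.73 and 4.57 CPM in the same cells, Scn10a at 1.34 and 0.463 CPM and Scn11a at 0.715 and 0.331 CPM. Scn2b, with 5 glial UMIs before, had no UMI left. Scn9a, Scn10a and Scn11a were thus not removed with these cells either, and the source of the glial UMIs was not tested by this step.

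**Figure D2:**
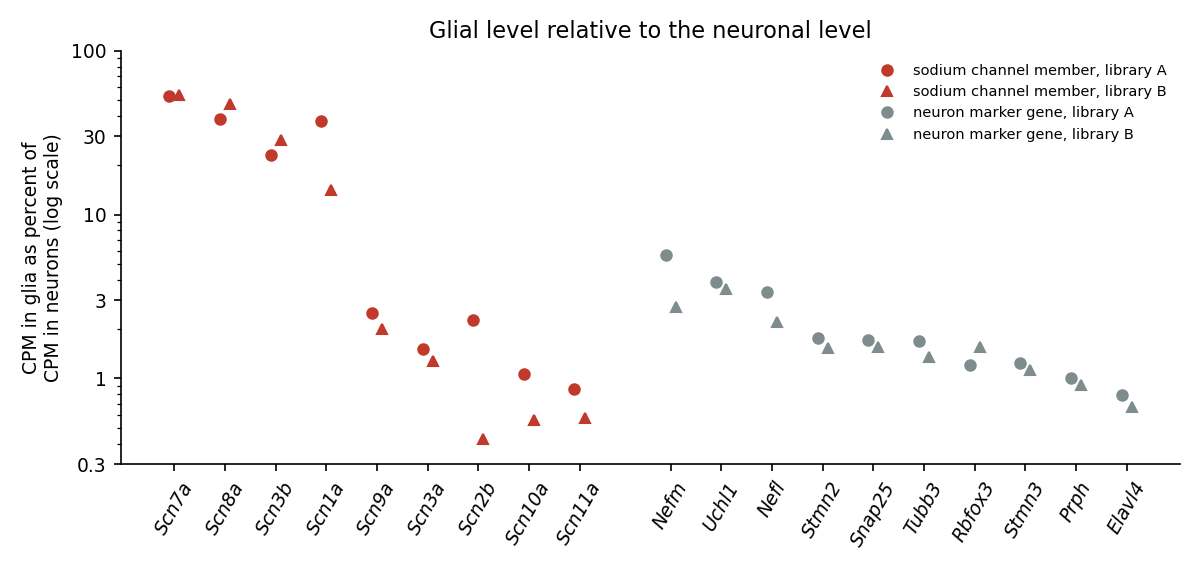
Glial CPM as a percentage of neuronal CPM on a log scale (y axis) for the 9 sodium channel genes and for 10 neuron marker genes (x axis), with a point for each library. Scn7a, Scn8a and Scn3b lie between 23.2% and 54.0% in both libraries, whereas no neuron marker exceeds 5.68% and Scn9a, Scn3a, Scn2b, Scn10a and Scn11a lie among the markers or below them.

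Shares of cells with a UMI depend on depth, and neurons were far deeper than glia. Each cell was therefore reduced to 2000 UMIs, which left out 42 neurons and 181 glia below that depth. Scn9a was then detected in 28.7% ± 1.06 of neurons (SD, n = 2), against 1.02% ± 0.174 of glia. Without the reduction it was seen in 85.5% of neurons and 2.33% of glia, at median depths of 28331.5 and 4723 UMIs. Scn10a was detected in 13.4% ± 5.34 of neurons, against 0.201% ± 0.169 of glia. Scn11a was detected in 10.8% ± 2.12 of neurons, against 0.119% ± 0.00570 of glia. Both resistant channels were thus near the floor in glia at equal depth.

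Scn7a was detected in 18.04% ± 1.14 of neurons at 2000 UMIs, against 8.83% ± 0.112 of glia and 2.62% ± 0.411 of fibroblasts (SD, n = 2). The glial share of Scn7a was 74.5 times that of Scn11a at this depth. Scn3b was detected in 6.23% ± 0.417 of neurons, against 2.15% ± 0.0863 of glia, and Scn8a in 2.42% ± 1.02 of neurons, against 1.56% ± 0.00343 of glia. For Scn8a the neuronal share at this depth was above the glial one in both libraries (3.14% and 1.695% of neurons, against 1.56% and 1.55% of glia in A and B), but varied between libraries by more than its difference from glia. A depth of 5000 UMIs was reached by 728 neurons but only 4245 of the 9444 glia. There Scn8a was detected in 10.4% and 6.61% of neurons, against 3.31% and 3.95% of glia. The neuronal share was again above the glial one in both libraries.

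The neurons were then split by Calca, the gene of the peptide CGRP that marks peptidergic nociceptors, at 788 CPM, the Otsu threshold. The 372 Calca-high neurons had a median of 29553.5 UMIs and the 438 Calca-low neurons a median of 27406, and 61 neurons lay within 1.5-fold of the threshold. The test was edgeR's quasi-likelihood test on UMIs summed per library and cell group, with Benjamini-Hochberg adjustment over 13639 genes and a threshold of 0.05. Of the 9 genes, 6 were higher in Calca-high neurons and 0 were lower, 3 did not pass, and the median log2 fold change was 0.93. Over all genes tested, 23.4% were called higher and 22.5% lower, with a median log2 fold change of -0.01.

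Scn10a had 180 and 160.2 CPM in Calca-high neurons of A and B, against 32.2 and 32.7 CPM in Calca-low neurons. Scn11a had 123 and 122 CPM in Calca-high neurons, against 21.7 and 22.4 CPM in Calca-low neurons. The library values of the groups lay far apart for both resistant channels, and these were the largest differences of the 9. The log2 fold change was 2.41 ± 0.09 (SE) for Scn10a (edgeR adjusted p = 1.33e-23, 5.30-fold) and 2.49 ± 0.11 for Scn11a (edgeR adjusted p = 9.17e-23, 5.63-fold). A Calca-high neuron had a median of 3 Scn10a UMIs and 2.5 Scn11a UMIs, whereas the median Calca-low neuron had 0 of each, and the highest counts in a neuron were 25 for Scn10a and 16 for Scn11a.

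Scn9a had 243 and 267 CPM in Calca-high neurons, against 168 and 158 CPM in Calca-low neurons. Its log2 fold change was 0.65 ± 0.07 (edgeR adjusted p = 9.65e-10, 1.57-fold), so Scn9a was high in both groups and only moderately higher in the Calca-high one. Scn8a had 22.9 and 20.3 CPM in Calca-high neurons, against 14.3 and 12.9 CPM in Calca-low neurons, a log2 fold change of 0.69 ± 0.17 (edgeR adjusted p = 0.000775). These are values of whole groups. Among the deep neuron clusters described below, Scn8a was highest in cluster 1, where 140 of 143 neurons were Calca-high. Scn3a did not pass, with 13.9 and 12.3 CPM in Calca-high neurons, against 12.2 and 11.8 CPM in Calca-low neurons (edgeR adjusted p = 0.615). Scn1a did not pass either: library A gave 11 UMIs in each group, and library B gave 23 in Calca-high and 9 in Calca-low neurons (log2 fold change 0.93 ± 0.53, edgeR adjusted p = 0.149).

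Scn7a was close to level between the groups, at 105 and 104 CPM in Calca-high neurons, against 99.1 and 94.5 CPM in Calca-low neurons. The log2 fold change was 0.13 ± 0.08 (edgeR adjusted p = 0.188), which did not pass. It passed in 2 of 12 alternatives, when the Calca threshold was halved (0.20, edgeR adjusted p = 0.0305) and without neuron clusters 5, 6 and 9 (0.23, edgeR adjusted p = 0.0150), with adjusted p between 0.0150 and 0.585 over the 12.

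Both beta subunit genes were higher in Calca-high neurons taken as a whole, but most neuronal Scn2b UMIs came from neuron cluster 1, described below. Scn3b had 57.9 and 59.1 CPM in Calca-high neurons, against 25.9 and 18.8 CPM in Calca-low neurons, a log2 fold change of 1.39 ± 0.12 (edgeR adjusted p = 2.25e-12, 2.62-fold). Scn2b had 10.2 and 16.0 CPM in Calca-high neurons, from 60 and 64 UMIs, against 3.50 and 3.33 CPM in Calca-low neurons, from 20 and 17 UMIs, a log2 fold change of 1.91 ± 0.32 (edgeR adjusted p = 2.94e-06, 3.75-fold). Outside the 9, Scn2a was slightly higher in Calca-high neurons (log2 fold change 0.45 ± 0.19, edgeR adjusted p = 0.0486), and Scn4b did not pass (1.19 ± 0.51, edgeR adjusted p = 0.0517).

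**Figure D3:**
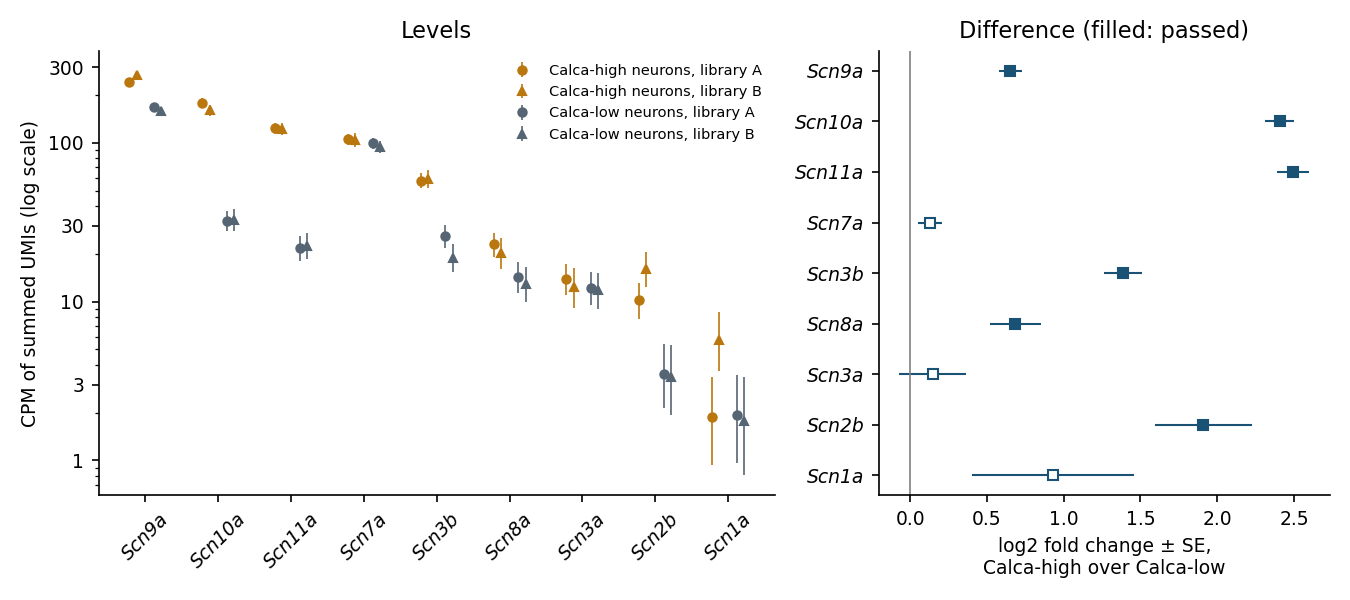
Left, CPM of the 9 genes on a log scale in Calca-high and Calca-low neurons of each library, with exact 95% Poisson intervals for counting error; right, log2 fold change of Calca-high over Calca-low neurons with its SE, filled where the edgeR adjusted p was under 0.05. Scn10a and Scn11a differ most (2.41 and 2.49), and Scn7a, Scn3a and Scn1a did not pass.

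The calls for Scn10a, Scn11a and Scn3b held in all 12 alternatives tested. With at most 5% mitochondrial UMIs, 87 Calca-high and 192 Calca-low neurons remained and 3 of the 9 genes passed: Scn8a (log2 fold change 0.24, edgeR adjusted p = 0.765) and Scn9a (0.26, edgeR adjusted p = 0.145) lost their calls and Scn2b was too low to test; Scn9a also lost its call with DESeq2 (0.67, adjusted p = 0.243). Over the 12 alternatives adjusted p ran from 5.79e-20 to 0.243 for Scn9a and from 1.97e-05 to 0.765 for Scn8a.

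Other genes moved with the split. The injury-response genes Atf3 (log2 fold change -3.28), Sprr1a (-3.82), Nts (-2.83), Sox11 (-2.41) and Npy (-1.46) were lower in Calca-high neurons, Gal (-0.06) did not pass, and the 6 summed to 4146 CPM ± 264 in Calca-high and 10910 CPM ± 358 in Calca-low neurons (SD, n = 2). The 8 glial markers, all detected in both groups, summed to 447 and 445 CPM in Calca-high neurons, against 675 and 660 CPM in Calca-low neurons. Median mitochondrial shares were 6.07% of UMIs in Calca-high and 5.17% in Calca-low neurons. The part of injury genes, glial RNA and mitochondrial share in the channel differences was not tested. Of the other peptidergic markers, Adcyap1 (1.88) and Tac1 (1.56) were higher in Calca-high neurons. The neurofilament gene Nefh was higher in them as well (1.12).

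The combination of alpha subunits in each neuron was read at an equal depth of 10000 UMIs, which 316 Calca-high and 363 Calca-low neurons reached. Scn10a was detected in 70.3% ± 4.85 of Calca-high and 18.5% ± 0.690 of Calca-low neurons (SD, n = 2). Scn11a was detected in 61.5% ± 3.46 of Calca-high and 13.2% ± 0.00645 of Calca-low neurons. Both resistant channels were detected together in 46.2% ± 2.64 of Calca-high and 7.13% ± 1.14 of Calca-low neurons, and neither of them in 14.4% ± 1.25 of Calca-high and 75.4% ± 1.82 of Calca-low neurons. Scn9a without Scn10a or Scn11a was the pattern of 13.5% ± 1.01 of Calca-high and 54.3% ± 0.339 of Calca-low neurons. At least 3 of the 6 alpha subunit genes other than Scn7a were detected in 55.9% ± 1.77 of Calca-high and 9.05% ± 1.42 of Calca-low neurons. Scn7a gave 59.4% ± 3.26 of Calca-high and 54.5% ± 2.27 of Calca-low neurons, and Scn9a 87.4% ± 2.37 of Calca-high and 74.1% ± 0.826 of Calca-low neurons. A channel that is not detected at this depth may still be expressed.

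Set against each other, the alpha subunit genes differed in their mix. Scn10a and Scn11a made up 42.3% ± 2.19 of the UMIs of the 7 alpha subunit genes in Calca-high neurons and 15.9% ± 0.782 in Calca-low neurons. Scn9a made up 36.9% ± 2.36 in Calca-high and 47.7% ± 0.602 in Calca-low neurons, and Scn7a 15.2% ± 0.131 in Calca-high and 28.3% ± 0.025 in Calca-low neurons (SD, n = 2). The 9 genes summed to 758 and 767 CPM in Calca-high neurons, against 379 and 356 CPM in Calca-low neurons.

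When the neurons were clustered again, still without the channel genes, 10 clusters resulted, and they are described by number and leading genes with no test. The Scn10a level ran highest in cluster 3 (81 neurons, led by the itch receptor gene Mrgpra3), at 307 and 323 CPM in A and B. Cluster 8 (34 neurons, with Mrgprd, Lpar3 and Gfra2, genes of non-peptidergic nociceptors) had 142 and 172 CPM of Scn10a, and cluster 4 (79 neurons, led by Ly6c1 and Cck) had 90.2 and 96.0 CPM. Cluster 1 (143 neurons, led by S100b, S1pr3 and Ngfr) had 174 CPM in A and 96.1 CPM in B, the widest gap between libraries among the deep clusters. Cluster 2 (91 neurons, led by Penk and Crh) had 5.57 and 2.58 CPM of Scn10a. Cluster 6 (63 neurons, led by Lyz2 and Pnoc, with macrophage genes and Trpm8 among its leading genes) had 0 and 1 UMI.

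Scn11a did not keep the order of Scn10a through the clusters. Cluster 4 had the most Scn11a, 197 and 214 CPM, and 2.21 Scn11a UMIs for each Scn10a UMI, whereas cluster 3 had 157 and 156 CPM and 0.499 Scn11a UMIs for each Scn10a UMI. Cluster 8 had 164 and 137 CPM of Scn11a and cluster 1 had 73.4 and 60.4 CPM. In clusters 2 and 6 Scn11a was at or below 4.30 CPM in both libraries.

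Scn9a varied far less. Its lowest level in a deep cluster was in cluster 0 (177 neurons, led by Anxa1, Flnc and Mustn1, with Sprr1a), at 143 and 124 CPM, and its highest mean was in cluster 8, at 274 and 322 CPM, although in A cluster 1 was higher (286.5 CPM, against 291.8 CPM in B). Clusters 2 and 6, which nearly lacked the resistant channels, still had 147 and 171 CPM and 201 and 173 CPM of Scn9a. Scn7a was highest among the deep clusters in cluster 6, at 153 and 170 CPM, and lowest in clusters 0 and 7, at 67.9 and 69.9 CPM and at 79.6 and 55.8 CPM. Cluster 6 therefore combined the most Scn7a with almost no Scn10a, while cluster 3 combined the most Scn10a with 89.1 and 80.4 CPM of Scn7a. The 8 glial markers summed to 847 and 976 CPM in cluster 6, beside 948 and 710 CPM in cluster 2. Their part in the Scn7a level of cluster 6 was not tested.

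Scn3b was highest in cluster 3, at 96.0 and 73.4 CPM, and lowest among the deep clusters in cluster 0, at 15.06 and 14.98 CPM. Scn2b and Scn8a were highest among the deep clusters in cluster 1, with 24.1 and 34.0 CPM of Scn2b and 36.5 and 32.2 CPM of Scn8a, and that cluster also had the most Nefh of them, a neurofilament gene of large neurons, at 418 and 518 CPM. Scn2b gave 114 of its 161 neuronal UMIs in this cluster, where 140 of the 143 neurons were Calca-high. All Calca-high neurons together gave 124 Scn2b UMIs, so most of these lay in cluster 1. Scn8a was lower in Calca-high neurons as a whole than in this cluster, at 22.9 and 20.3 CPM. The part of cluster 1 in the Calca differences of Scn2b and Scn8a was not tested. Scn3a was highest in cluster 6 in A (35.2 CPM, against 14.5 CPM in B) and in cluster 2 in B (32.7 CPM, against 19.1 CPM in A), so its order between libraries was not kept. Cluster 4, with 28.7 and 20.9 CPM, also had Scn3a, and cluster 3, with 4.39 and 3.50 CPM, had little.

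The clusters differed in the injury-response gene Atf3 as well. It was at 727 and 629 CPM in cluster 0, 784 and 1055 CPM in cluster 2 and 730 and 935 CPM in cluster 7, against 15.7 and 24.5 CPM in cluster 3 and 30.5 and 44.5 CPM in cluster 1. Cluster 7 (41 neurons, led by Slc14a1) had 51.6 and 63.8 CPM of Scn10a beside its high Atf3, and cluster 0 had 32.3 and 26.2 CPM. Calca was measured at 9205 and 8272 CPM in cluster 1 and 7648 and 8304 CPM in cluster 4, so the clusters with the most Calca were not those with the most Scn10a.

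**Figure D4:**
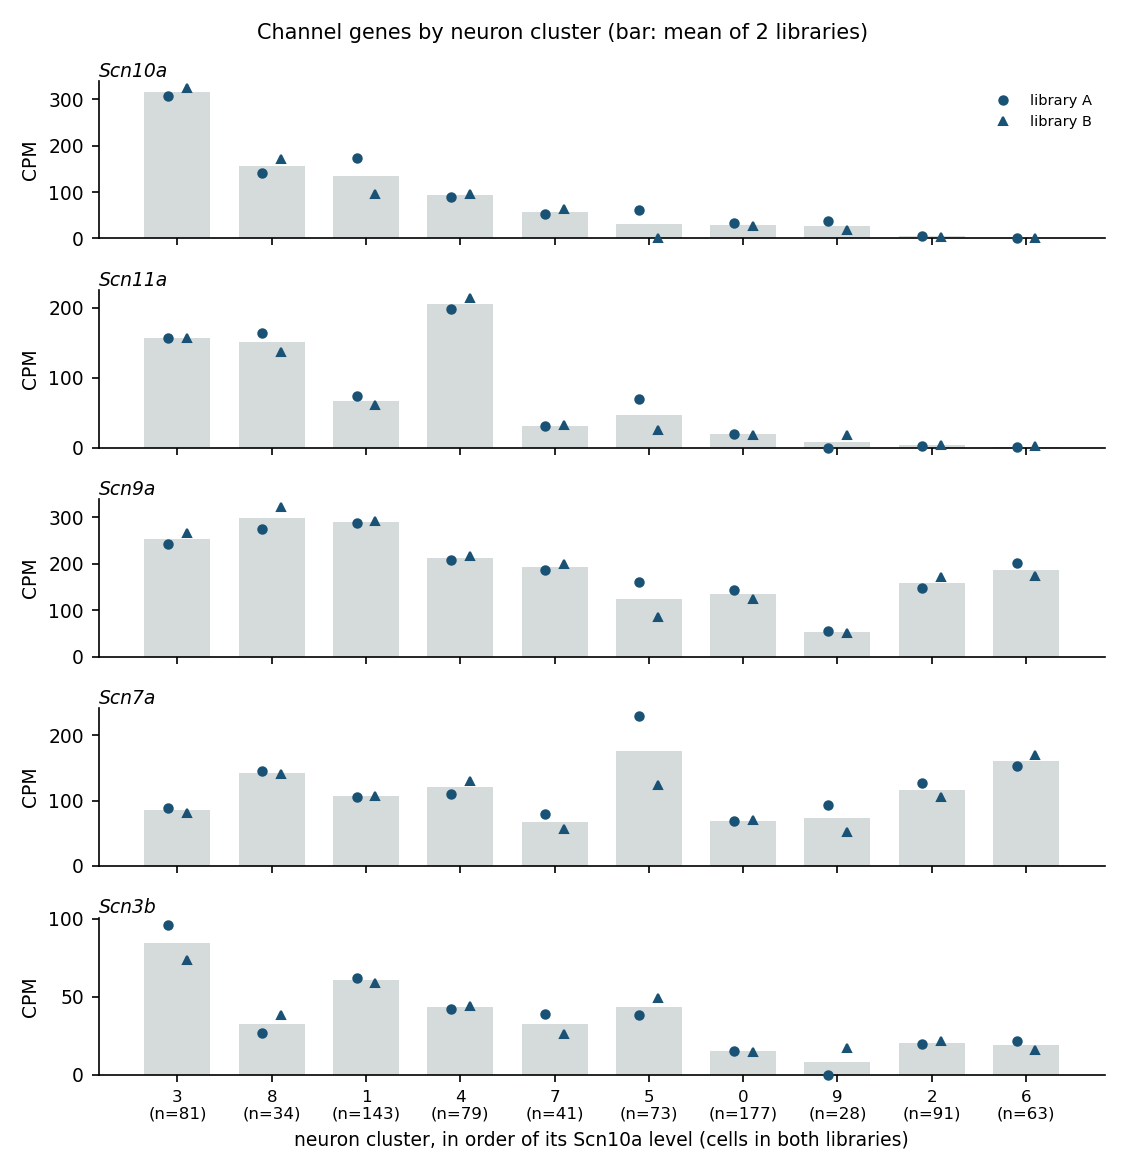
CPM (linear y axes) of Scn10a, Scn11a, Scn9a, Scn7a and Scn3b in the 10 neuron clusters, ordered by their mean Scn10a level from left to right; bars are means of the 2 libraries and points the libraries. Cluster 3 is highest for Scn10a (307 and 323 CPM), cluster 4 for Scn11a (197 and 214 CPM), and Scn9a is at or above 124 CPM in both libraries in every cluster except 5 and 9, the shallow ones.

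Calca-low neurons were split further by Nefh, since neurofilament-rich neurons are the large, myelinated ones. The Otsu threshold was 438.6 CPM, and 22 neurons lay within 1.5-fold of it, close to the number called high. Only 25 neurons (11 in A and 14 in B) were Nefh-high, with a median of 4989 UMIs, against 413 Nefh-low neurons with a median of 28162. The threshold is relative to the UMIs of a cell, so a shallow cell could pass it with very few Nefh UMIs. Of the 25 Nefh-high neurons, 7 lay below 2000 UMIs, against 11 of the 413 Nefh-low neurons. The part of depth in the split was not tested, so the Nefh-high group is not read as large neurons. Of the 9 genes, 3 were higher in Nefh-high neurons and 0 were lower, and of 13205 genes tested 1.33% were called higher and 1.89% lower. Each call rests on few UMIs. Scn8a had 8 and 4 UMIs in Nefh-high neurons (96.0 and 44.0 CPM), against 74 and 62 UMIs in Nefh-low neurons (13.1 and 12.4 CPM), a log2 fold change of 2.25 ± 0.57 (edgeR adjusted p = 0.0127). Scn1a had 3 and 2 UMIs in Nefh-high neurons, against 8 and 7 UMIs in Nefh-low neurons, a log2 fold change of 4.14 ± 1.22 (edgeR adjusted p = 0.0444).

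Scn7a had 396 and 88.0 CPM in Nefh-high neurons, against 94.7 and 94.6 CPM in Nefh-low neurons. Its log2 fold change of 1.13 ± 0.30 (edgeR adjusted p = 0.0207) came from library A, since without replicate A it was -0.10. Adjusted p ran over the alternatives from 4.86e-05 to 1 for Scn8a, from 0.000434 to 0.619 for Scn1a and from 0.000490 to 0.139 for Scn7a, and with the 5% mitochondrial limit 0 of the 9 passed. Scn4b was also higher in Nefh-high neurons (log2 fold change 4.95 ± 1.10, from 6 and 1 UMIs in Nefh-high and 7 and 5 in Nefh-low neurons, edgeR adjusted p = 0.00332). The 8 glial markers summed to 1919 and 2002 CPM in Nefh-high neurons, against 656 and 636 CPM in Nefh-low neurons, and their part in the result was not tested. Scn10a and Scn11a had 4 and 3 UMIs in Nefh-high neurons of A and 0 in B, which is too few to show a difference.

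Across single neurons the members were related to different extents. Pearson correlations of log-scaled counts per 10000 UMIs were computed over the 435 neurons of A and the 375 of B. They are given without a test. Neurons of a library share a capture but not a depth: cluster medians ran from 1353 UMIs in cluster 5 to 35420.5 in cluster 8. Cells were not reduced to an equal depth here, and the part of depth in r was not tested. The closest pair was Scn10a with Scn11a, at r = 0.53 in A and 0.57 in B. Scn10a with Scn3b gave 0.45 and 0.30 in A and B, and Scn9a with Scn10a 0.41 and 0.36. Scn7a was only loosely related to the resistant channels, at 0.15 and 0.03 with Scn10a and 0.14 and 0.10 with Scn11a, and Scn3a and Scn1a had few UMIs, so their low values carry little information. Scn10a ran with Calca (0.58 and 0.49) and with Mrgpra3 (0.42 and 0.53) and ran opposite to Atf3 (-0.56 and -0.47). Scn8a (0.40 and 0.32) and Scn2b (0.33 and 0.26) ran with Nefh, and Scn3a ran with the neuropeptide gene Gal (0.27 and 0.28).

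Among 6254 genes with at least 20 CPM in neurons, the genes most like each member were sought by the lower r of the libraries. For Scn10a they were Dgkh, a diacylglycerol kinase gene (0.66 and 0.70 in A and B), Ppp1r1c (0.65 and 0.70) and Pirt, which encodes a regulator of the heat channel TRPV1 (0.63 and 0.65). For Scn11a they were Dgkh (0.61 and 0.64), Fstl1 (0.57 and 0.60) and Mal2 (0.56 and 0.64). Scn9a ran closest with the neuronal RNA-binding protein genes Elavl2 (0.48 and 0.49) and Elavl4 (0.45 and 0.53) and with Pirt (0.50 and 0.45). Values for Scn3b were lower, led by Nptxr (0.39 and 0.41), Ppp1r2 (0.46 and 0.37) and Pirt (0.42 and 0.37). For Scn7a they were lowest, and the ones given are the adhesion gene Cntn1 (0.29 in each library) and Rprm (0.26 and 0.28).

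Of the members whose glial ratio stood above the neuron markers, Scn7a, Scn3b and Scn8a had enough glial UMIs to be described by glial cluster, and Scn1a, with 31, did not. Finer clustering, again without the channel genes, gave 10 glial clusters, described here with no test. Scn7a was highest in the 1424 glia led by Pou3f1 and Cxcl14, at 94.7 and 82.6 CPM in A and B. In the 2325 glia led by Ndrg2 and Ccnd2, with Apoe, it was at 55.8 and 55.4 CPM. It was far lower in the 487 glia led by Igfbp5 and Tgfbi, at 14.3 and 13.3 CPM, and gave 1 and 6 UMIs in the 347 glia led by Mgp and Nrg1 (1.24 and 8.002 CPM). Mean Scn7a levels of these 10 clusters spanned 4.62 to 88.6 CPM. Over the 5 clusters of a coarser clustering of the glia alone, the means spanned 34.3 to 74.7 CPM.

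Scn3b had another order. It had 16.2 and 17.2 CPM in the Ndrg2 glia and 17.3 and 12 CPM in the Mgp glia, against 5.79 and 5.16 CPM in the Pou3f1 glia and 3.55 and 3.98 CPM in the 798 glia led by Fxyd6, where Scn7a was at 77.4 and 79.7 CPM. It had 3.575 and 6.26 CPM in the Igfbp5 glia, where Scn7a was low as well. The 185 dividing glia led by Ccnb1 and Cenpf had 1 Scn3b UMI in each library. Scn8a was flat by comparison, with cluster means of 3.09 to 10.6 CPM.

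**Figure D5:**
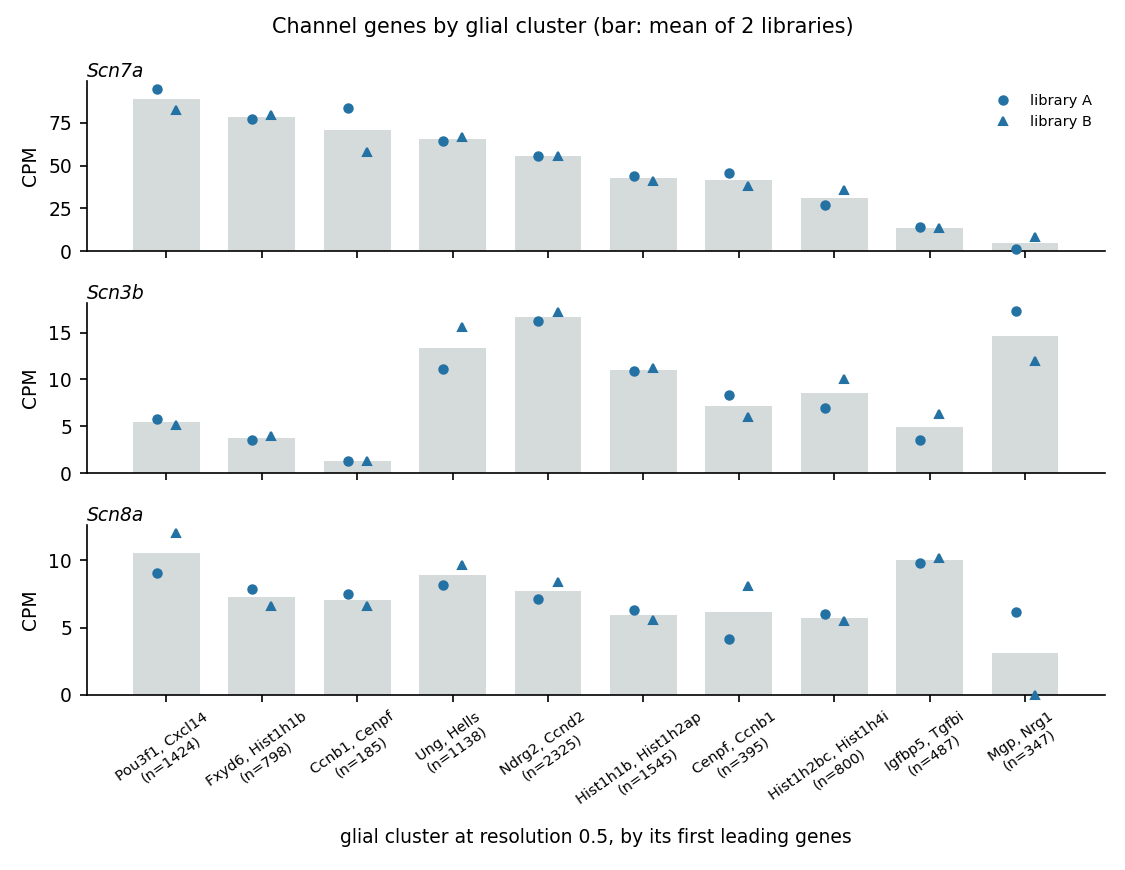
CPM (linear y axes) of Scn7a, Scn3b and Scn8a in the 10 glial clusters, named by their first leading genes and ordered by mean Scn7a from left to right; bars are means of the 2 libraries and points the libraries. Scn7a is highest in the Pou3f1, Cxcl14 cluster (94.7 and 82.6 CPM), whereas the mean of Scn3b is highest in the Ndrg2, Ccnd2 cluster (16.2 and 17.2 CPM), with the Mgp, Nrg1 cluster higher in A (17.3 and 12 CPM).

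Genes whose products anchor, traffic or modulate the channels were read from a list of 14, of which 13 were tested. In the Calca split 5 were higher in Calca-high neurons and 2 were lower, with a median log2 fold change of 0.11, beside the 23.4% called higher and 22.5% called lower over all genes tested. Fgf13, whose product binds the intracellular end of alpha subunits, was at 526 and 536 CPM in Calca-high neurons, against 161 and 170.2 CPM in Calca-low neurons (log2 fold change 1.70 ± 0.07, edgeR adjusted p = 9.40e-24). The adhesion genes Nfasc (1.41) and Cntn1 (0.95), the ubiquitin ligase gene Nedd4l (0.92) and Dpysl2 (0.57), whose product CRMP2 is linked to Nav1.7 trafficking, were also higher. Nrcam (-0.88) and Ank3 (-0.19), which encodes the anchor ankyrin G, were lower. S100a10, which encodes a protein that carries Nav1.8 to the membrane, was the most abundant of the list, at 2555 and 2528 CPM in Calca-high neurons, against 2809 and 2712 CPM in Calca-low neurons, and did not pass (-0.10, edgeR adjusted p = 0.144). In the Nefh split Nfasc (3.37) and Cntn1 (2.47) were higher and Fgf13 (-1.88) was lower in Nefh-high neurons, and Tmem233, also called lower, had no UMI in Nefh-high neurons.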

How the data were processed

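The deposited files are gene by barcode matrices of UMI counts, which the authors made from 10x 3′ libraries with Cell Ranger (version 3.0.2 in the submitters' processing notes, 3.1.0 in the matrix headers) on mm10, with no normalization. Strand was not stated for the counting, so overlapping antisense genes cannot be separated with certainty.

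The study's stated limits (200 detected genes or more, mitochondrial share up to 10%) were applied to the cells, and left 10730 of 10948; raising the first limit to 1000 genes, an alternative, left 10563, the number the study gives. No doublets were removed. The libraries were merged and clustered with Seurat 5.3.0 in R 4.3.3 (log-normalized counts, 2000 variable genes, 20 principal components, resolution 0.18; 0.5 within neurons and glia), holding out 14 sodium channel genes, and clusters were named from marker lists. Cell groups were rebuilt here and can differ from the study's. UMIs were summed per library and group and tested with edgeR 4.0.16 (quasi-likelihood, TMM, filterByExpr, library as a block; 10 sums with 4 residual degrees of freedom for Calca, 12 sums with 5 for Nefh; SE from the F statistic); DESeq2 1.42.0 and other filters, thresholds and depths were alternatives. The sums of glia, fibroblasts and macrophages were in both fits, so they shared in the estimate of the spread. The procedure was checked on simulated counts. Cells thinned to a depth were drawn without replacement. Intervals are exact, at 95%, and floors are 3 counts; both cover counting error only. Exon positions and coding bases came from GENCODE M21 (GRCm38, the same build as mm10). All 9 members were tested in both comparisons. For members with at least 20 CPM in neurons, the genes most like them are 3 by the lower r of the libraries, of which those reported are named. The members and gene lists were chosen with earlier results of these data known. Some items are not reported here.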

Additional observations from a re-analysis of the deposited data

How the results depend on the processing

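The library was a block in both tests, so the neuron groups were compared within libraries; without the block 6 members passed in the Calca split and 2 in the Nefh split, where Scn1a no longer did (log2 fold change 4.145, edgeR adjusted p = 0.0539, range over alternatives 0.000434 to 0.619). For the Calca split, 11 of 12 counts of members passed were within 1.5 times the main count; with the mitochondrial limit at 5%, 1131 genes were called higher, 892 lower and 3 of the 9 members passed, with fewer neurons in the fit. Scn1a passed when neurons were called Calca-high by cluster (log2 fold change 1.57, edgeR adjusted p = 0.0138, range over alternatives 0.0138 to 0.347). For the Nefh split, the number called moved more: 386 higher and 143 lower with DESeq2; 109 higher, 124 lower and 1 member with the neuron sums only; 99 higher, 115 lower and 1 member with the threshold halved; 100 higher, 128 lower and 1 member without the tenth of neurons richest in glial markers; 23 higher and 0 members with the 5% mitochondrial limit; and 106 higher without neuron clusters 5, 6 and 9, an alternative chosen after seeing the data. The cause of these moves was not tested. How many genes were tested under these alternatives is not given here. Counts of members that passed under them, here and above, are therefore not set against a share of all genes. Without replicate A or without replicate B no residual degrees of freedom were left and no test was made; the log2 fold change of Scn7a in the Nefh split was -0.10 without replicate A and 2.05 without replicate B, and that of Scn1a in the Calca split -0.03 without replicate B and 1.29 without replicate A. The low UMI counts of Scn1a, Scn2b and Scn3a, and of every member in Nefh-high neurons and macrophages, limit what can be said of them.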
